A study of Mus musculus with 6 samples.

Results

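Hox genes encode homeodomain transcription factors and lie in 4 clusters, Hoxa on chromosome 6, Hoxb on chromosome 11, Hoxc on chromosome 15 and Hoxd on chromosome 2 of the mouse. Every deposited symbol made of Hox, a cluster letter and a paralog number was taken, which gave 30 of the 25955 entries, 11 from Hoxa, 7 from Hoxb, 9 from Hoxc and 3 from Hoxd. The GENCODE M21 annotation lists 39 such genes, and the other 9 were not analysed here. RNA was measured in bulk in 6 libraries of cells sorted from enzyme-digested bone marrow of C57BL/6 mice, 3 labelled CD44+CD51- and 3 labelled CD51+. CD44 is a receptor for hyaluronan and CD51 is integrin αV. The labels call all of these cells TNCs without spelling the term out, give no genotype other than the strain, no treatment and no age, and do not say whether the libraries came from separate animals or pools. The p-values below therefore measure only the spread between these libraries, which may be technical.

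Within a cluster, genes with low paralog numbers act towards the head and genes with high numbers towards the tail and the tips of the limbs, and genes with the same number in different clusters are each other's closest relatives. Connective tissue cells keep a positional set of active Hox genes into adult life, whereas blood progenitors mainly use the middle of the Hoxa cluster and parts of Hoxb and switch it off as they mature. Hox proteins bind DNA together with partners of the TALE class (Pbx, Meis and Pknox), and Trithorax and Polycomb complexes keep the clusters active or silent.

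Levels are RPKM, reads per kilobase of gene scaled to library size, as the authors deposited them. They can be compared between genes because they are per length. At the estimated library sizes of 12197833 to 32517059 reads, each Hox value came to a whole number of reads, and these read numbers are given where a level is low. The 11 mesenchymal stromal markers were all higher in CD51+, with summed levels of 20676 to 28450 RPKM against 21.3, 115.7 and 19.997 RPKM in CD44+CD51- replicates 1 to 3. Early progenitor markers summed to 93.4 to 138 RPKM in CD44+CD51- and 29.6 to 81.2 RPKM in CD51+, and 3 of the 5 tested (Kit, Myb and Gata2) were lower in CD51+. Markers of other marrow cells were present in both populations. Myeloid markers summed to 66063 to 72427 RPKM in CD51+ and 4456 to 21415 RPKM in CD44+CD51- (7 of 7 higher in CD51+), and the 7 erythroid markers summed to 6453 to 9809 RPKM and 6439 to 9010 RPKM (3 higher and 4 lower). Markers of mural cells (4 of 4 tested), cartilage (2 of 2) and Schwann cells (1 of 1) were higher in CD51+ as well, and their part in the Hox levels was not tested. In bulk RNA, fewer cells of a type and less RNA per cell cannot be told apart.

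Transcripts of many Hox genes were present in CD51+ and those of few in CD44+CD51-. Their summed level was 37.3 ± 8.33 RPKM (SD, n = 3) in CD51+ and 3.01 ± 0.309 RPKM in CD44+CD51-. In CD51+, 25 of the 30 genes had at least 1 read in all 3 libraries, and 8 reached an RPKM of 1 in all 3. In CD44+CD51-, 8 had a read in all 3 libraries and none reached an RPKM of 1 in all 3. Of the 731 Hox reads in CD44+CD51-, 698 came from Hoxa and 692 from the 6 genes Hoxa4 to Hoxa10, while Hoxb gave 23, Hoxc 6 and Hoxd 4. The 7885 Hox reads in CD51+ were spread as 5279 from Hoxa, 1749 from Hoxc, 594 from Hoxd and 263 from Hoxb. Hoxc13 and Hoxd4 were at 0 in all 6 libraries. The limit that a count of 0 allows, taken as 3 reads per library, is a mean of 0.0568 and 0.0474 RPKM over the CD44+CD51- libraries. It was not computed for CD51+, which holds the shallowest library. Of the 2948 exonic bases of Hoxd4, 1154 are shared with Gm28230 and 388 with Hoxd3 on the same strand, neither analysed here, and 347 with the antisense transcript Hoxd3os1. How reads in shared bases were counted is not given in the sources used here, so the 0 of Hoxd4 is uncertain.

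**Figure D1:**
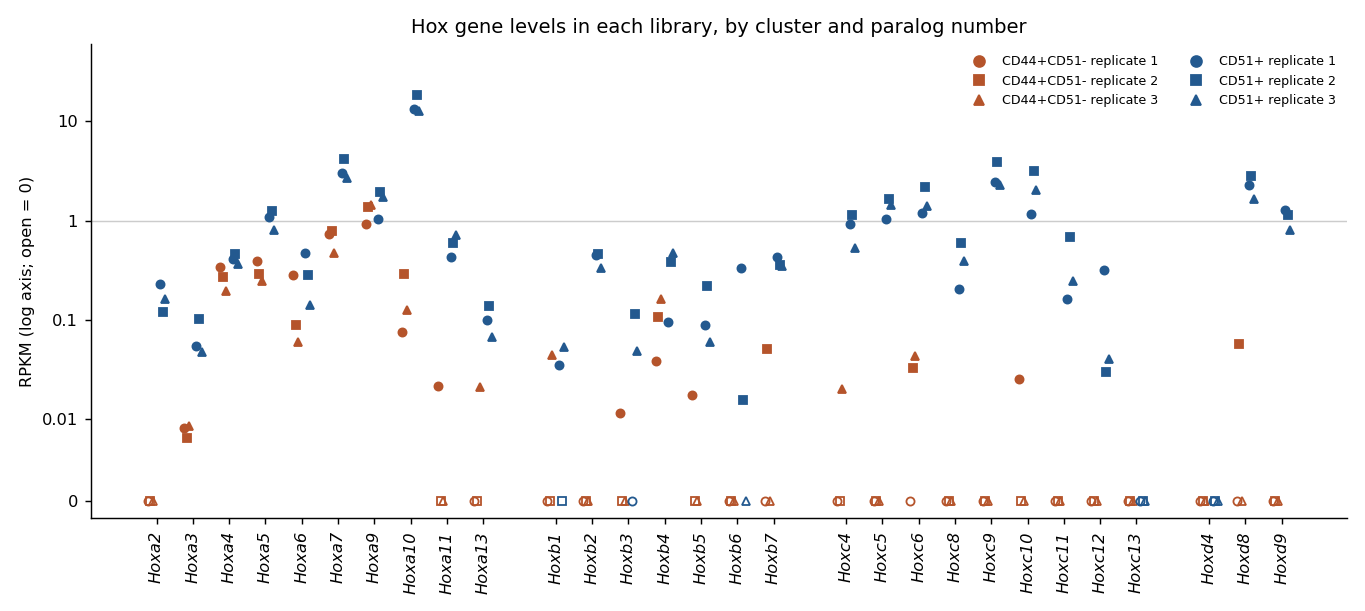
RPKM (log axis, with 0 drawn as open symbols at the bottom) of 29 of the 30 Hox genes in each of the 6 libraries, ordered by cluster and paralog number; orange is CD44+CD51- and blue is CD51+, with a marker shape for each replicate. Hoxa10 stands highest in blue, at 12.7 to 18.4 RPKM, the orange points above 0.1 RPKM belong to Hoxa4 to Hoxa10 and Hoxb4, and for Hoxa9 the colours overlap.

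The groups did not overlap for 22 of the 28 genes above 0 in any library, each higher in CD51+. Over all 30 genes they overlapped for 8, which counts Hoxc13 and Hoxd4 at 0 throughout. None was lower in every CD51+ library. Among the 21652 entries above 0 in any library, 24.1% were higher without overlap and 23.8% lower. Of the 28 genes, 8 were at 0 in all CD44+CD51- libraries and above 0 in all CD51+ libraries, a pattern found in 3.14% of those entries. By limma on log2(RPKM + 1), over the genes with RPKM of at least 1 in 3 or more libraries, 8 Hox genes could be tested, of which 7 were higher in CD51+ and 0 lower at a Benjamini-Hochberg adjusted p under 0.05 (also 0 lower at an unadjusted p under 0.05). Of all 11741 genes tested, 24.1% were called higher and 29.7% lower (53.7% in either direction), a split of 2825 to 3484 that became 3165 to 2534 under median-of-ratios scaling and 2591 to 4492 under quantile normalization. All 7 Hox genes called higher reached an RPKM of 1 in no CD44+CD51- library and so entered the test only through CD51+, which makes their count a description. Hoxa9 alone entered through both groups, and it was not called.

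The low genes were covered by a second fit, limma voom on the recovered reads of genes with at least 10 reads over the 6 libraries, an alternative added after the data had been seen. It tested 25 Hox genes and called 20 higher and 0 lower (again 0 at an unadjusted p under 0.05), where 23.8% of the 13925 genes tested were called higher and 19.1% lower (42.8% in either direction). The genes called were 8 of 11 tested in Hoxa, 3 of 5 in Hoxb, 7 of 7 in Hoxc and 2 of 2 in Hoxd. The median log2 change of the 25 was 4.91 in that fit and that of all genes -0.12, and for the 8 genes of the RPKM test it was 1.47 against -0.23. For Hox genes outside the RPKM test, the log2 changes and adjusted p-values below are from this fit on reads. The total-reads filter also lets in genes that are high in a single group. Of the Hox genes called higher on reads, only Hoxa5, Hoxa7 and Hoxa10 had 10 or more reads in CD44+CD51- (38, 127 and 37). The others passed the filter only through CD51+ and could hardly be called lower. The count, the calls by cluster and the median are therefore a description. The count on reads was 17 without CD44+CD51- replicate 2 and 22 without CD51+ replicate 1, the shallowest library. CD44+CD51- replicate 2 was the deepest library of its group and had its highest stromal, myeloid and B lineage marker sums.

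Hoxa9 and Hoxa10 are neighbours on chromosome 6, transcribed in the same direction, and they had the smallest and the largest change on the log2(RPKM + 1) scale of the 8 genes in the RPKM test. That order belongs to this scale: the ratio of means was larger for Hoxd8 than for Hoxa10. Hoxa9 (chromosome 6, 52223100 to 52231089, minus strand) is a factor of blood stem and progenitor cells and a driver of human acute leukaemia together with MEIS1. It stood at 0.920, 1.37 and 1.42 RPKM in CD44+CD51- replicates 1 to 3 and at 1.04, 1.95 and 1.74 RPKM in CD51+ (105, 196 and 153 reads against 71, 354 and 235). The groups overlapped, with CD51+ replicate 1 below the upper CD44+CD51- libraries. The log2 change was 0.19 ± 0.19 (SE; adjusted p = 0.404, limma) and turned to -0.31 (adjusted p = 0.101) under quantile normalization. On reads it was 0.40 ± 0.32 (adjusted p = 0.354, limma voom).

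Hoxa10 (chromosome 6, 52231197 to 52240854, minus strand), known for roles in the uterus, the upper leg and blood progenitors, stood at 0.0748, 0.287 and 0.127 RPKM in CD44+CD51- (5, 24 and 8 reads) and at 13.4, 18.4 and 12.7 RPKM in CD51+ (534, 1952 and 1009 reads). Every CD51+ library was far above every CD44+CD51- library. The ratio of the means was 91.1, and the log2 change was 3.75 ± 0.18 (adjusted p = 1.13e-05, limma) on the RPKM scale and 6.62 ± 0.51 (adjusted p = 0.000125) on reads. Within a library, the level of Hoxa10 divided by that of Hoxa9 was 0.0813, 0.209 and 0.0892 in CD44+CD51- and 12.8, 9.41 and 7.33 in CD51+, so the order of the neighbours was opposite in the 2 populations. No exonic base of Hoxa10 was shared with another annotated gene, and Hoxa9 shared only the 85 bases of Mir196b among 5580.

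Because these neighbours on the same strand differed so much, the RefSeq promoter windows (GRCm38.p6, 250 bases before to 50 after an annotated start, minus strand) are shown for both genes, with CG dinucleotides, the target of DNA methylation, in capitals. Hoxa9 has 1 window, at chr6:52227321-52227620, and Hoxa10 has 2, at chr6:52234890-52235189 and chr6:52240805-52241104.
Hoxa9: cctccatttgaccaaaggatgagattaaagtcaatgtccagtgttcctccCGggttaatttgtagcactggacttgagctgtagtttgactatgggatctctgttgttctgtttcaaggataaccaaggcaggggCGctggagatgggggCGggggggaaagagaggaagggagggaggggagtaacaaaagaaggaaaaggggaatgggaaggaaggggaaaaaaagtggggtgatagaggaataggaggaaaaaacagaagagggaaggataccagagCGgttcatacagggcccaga
Hoxa10, start nearer to Hoxa9: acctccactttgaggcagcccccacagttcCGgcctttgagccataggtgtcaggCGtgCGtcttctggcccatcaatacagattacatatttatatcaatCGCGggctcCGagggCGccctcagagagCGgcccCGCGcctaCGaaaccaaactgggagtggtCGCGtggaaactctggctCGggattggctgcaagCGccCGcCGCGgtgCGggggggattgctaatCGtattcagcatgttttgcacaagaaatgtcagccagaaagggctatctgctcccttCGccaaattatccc
Hoxa10, start farther from Hoxa9: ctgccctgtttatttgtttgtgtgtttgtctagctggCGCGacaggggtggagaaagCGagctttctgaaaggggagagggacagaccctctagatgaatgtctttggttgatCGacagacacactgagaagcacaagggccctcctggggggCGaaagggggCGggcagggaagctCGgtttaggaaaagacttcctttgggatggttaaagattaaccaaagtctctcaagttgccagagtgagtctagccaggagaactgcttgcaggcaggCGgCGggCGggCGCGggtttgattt
The Hoxa9 window held 4 CG dinucleotides, and 31.4% of the 32851 windows of the same length had fewer. The Hoxa10 windows held 21 and 12, with 75.2% and 60.4% of windows having fewer. The median was 7 over all windows and 13 over the 16 windows of the 15 Hox genes with an entry, which ran from 4 to 45. The Pbx-Hox composite motif TGATNNAT, read on both strands, was in none of these 3 and in 2 of the 16 windows (Hoxa2 and Hoxb1), against 8.85% of all windows, and the core homeodomain motif TAATTA was in 0 of the 16 against 5.29%. No place of TGATNNAT therefore overlapped one of TAATTA. The windows are a description, and neither methylation nor factor binding was measured in these libraries.

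The rest of the Hoxa cluster was graded. Hoxa7, which patterns the thoracic region and is used by blood progenitors, was at 0.731, 0.788 and 0.468 RPKM in CD44+CD51- and 3.02, 4.13 and 2.69 RPKM in CD51+, without overlap. It was the next highest gene after Hoxa9 in CD44+CD51- and after Hoxa10 in CD51+. Its ratio of means was 4.95, with a log2 change of 1.36 ± 0.17 (adjusted p = 0.00088, limma). Of its 2876 exonic bases, 586 overlapped the antisense transcript Hoxaas3, whose reads cannot be told apart without strand. Hoxaas3 itself was at 0.310 ± 0.128 RPKM in CD44+CD51- and 0.341 ± 0.0515 RPKM in CD51+.

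Hoxa5, a regulator of the lung and of the neck-to-chest transition, was at 0.391, 0.291 and 0.248 RPKM in CD44+CD51- and 1.09, 1.26 and 0.812 RPKM in CD51+. The groups did not overlap, the ratio of means was 3.40, and the log2 change on reads was 1.74 ± 0.42 (adjusted p = 0.0123, limma voom, and 0.0502 without CD44+CD51- replicate 3). Hoxa4 and Hoxa6, which help to pattern the vertebrae of the same region, were not called. Hoxa4 had 11, 11 and 6 reads against 8, 24 and 14, with a log2 change of 0.63 ± 0.46 (adjusted p = 0.306), and Hoxa6 had 5, 2 and 1 reads against 5, 8 and 3, with 0.96 ± 0.74 (adjusted p = 0.332). The RPKM of Hoxa4 did not overlap between the groups, running from 0.195 to 0.338 in CD44+CD51- and from 0.362 to 0.463 in CD51+. Of the 1594 exonic bases of Hoxa4, 255 overlap the antisense transcript Gm29430.

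The ends of the Hoxa cluster were at or near 0 in CD44+CD51-. Hoxa11, a factor of the forearm that also marks skeletal stem cells in adult mouse bone marrow, had 1, 0 and 0 reads in CD44+CD51- and 12, 44 and 40 in CD51+ (0.430, 0.592 and 0.721 RPKM). The ratio of read rates was 91.0, with a 95% counting interval of 15.9 to 3630, and the log2 change was 5.35 ± 0.69 (adjusted p = 0.0008). However, 800 of its 2287 exonic bases overlap the antisense transcript Hoxa11os, which had 0 reads in every CD44+CD51- library and 15, 22 and 8 in CD51+. Hoxa13, a factor of the hands and feet, had 1 read in the 3 CD44+CD51- libraries and 3, 11 and 4 in CD51+ (log2 change 3.01 ± 0.77, adjusted p = 0.015), with adjusted p-values of 0.0568 and 0.0724 when CD44+CD51- replicate 1 or 2 was left out.

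At the other end, Hoxa2, needed for the hindbrain and the second branchial arch, had none in CD44+CD51- and 5, 7 and 7 reads in CD51+, a level at least 2.18-fold higher if 3 reads in each library are taken as the floor. Hoxa3, needed for the thymus and parathyroid, had 1 read in each CD44+CD51- library and 4, 20 and 7 in CD51+ (log2 change 2.63 ± 0.63, adjusted p = 0.0116, and 0.0517 without CD44+CD51- replicate 2). Both were below 1 RPKM in CD51+. Hoxa2 shares 267 of 1775 exonic bases, and Hoxa3 482 of 6014, with Gm28308 on the same strand. On the opposite strand, Hoxa3 overlaps Hoxaas2 (503 bases), Gm29430 (437), Hoxaas3 (297) and 5730596B20Rik (292). In CD51+ the level was thus highest at paralog 10, next at paralog 7, and under 1 RPKM at both ends of the cluster.

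**Figure D2:**
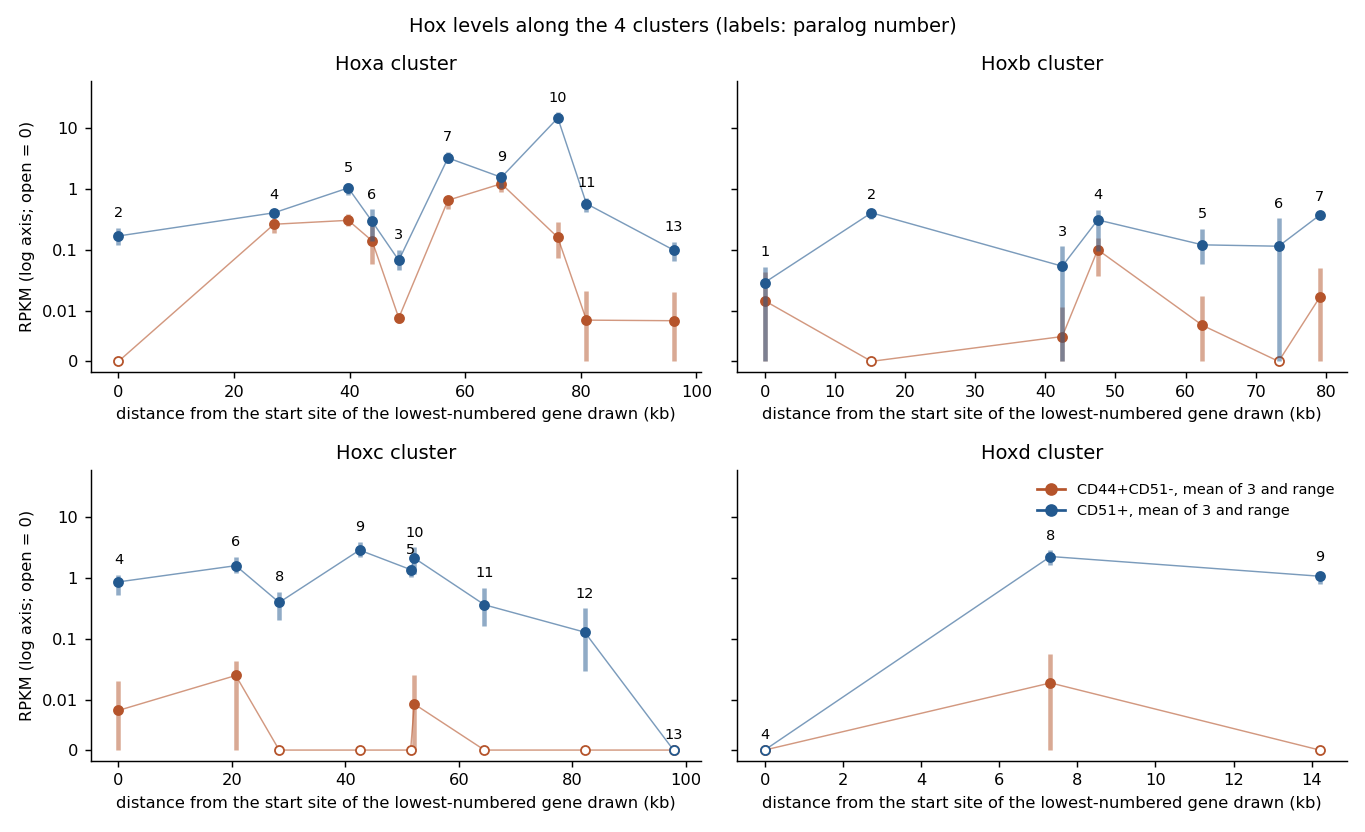
Mean RPKM (points, log axis, open at 0) with the range of the 3 libraries (bars) along each cluster, against the distance in kilobases from the annotated start of the lowest-numbered gene drawn; numbers are paralogs, orange is CD44+CD51- and blue is CD51+. Each gene is placed at its farthest upstream start in GENCODE M21, so Hoxa3 and Hoxc5, which have long transcripts, stand out of numerical order, and Hoxa10 peaks in CD51+ at 14.8 RPKM where the CD44+CD51- line is at 0.163 RPKM.

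The Hoxc cluster was read almost only in CD51+. Its 9 genes had 6 reads in all in CD44+CD51- and 1749 in CD51+, and 6 of the 9 were at 0 in every CD44+CD51- library. Summed over the cluster, the levels were 0.0256, 0.0325 and 0.0631 RPKM against 7.46, 13.4 and 8.36 RPKM. The Hoxc genes with most reads in CD51+ carry paralog numbers 5, 6, 9 and 10, which act in the trunk and the hindlimb.

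Hoxc9 (chromosome 15, 102976439 to 102985099, plus strand), a factor of the thoracic spine and its motor neurons, was at 0 in CD44+CD51- and at 2.46, 3.91 and 2.26 RPKM in CD51+ (73, 309 and 133 reads). It was at least 50.03-fold higher against the floor, with a log2 change of 1.93 ± 0.18 (adjusted p = 0.00021, limma). Hoxc10, a factor of the lumbar region and hindlimb, was at 0.0256 RPKM (1 read), 0 and 0 in CD44+CD51- and at 1.16, 3.17 and 2.05 RPKM in CD51+. Its ratio of read rates was 302 (95% counting interval 53.9 to 11977) and its log2 change 1.58 ± 0.24 (adjusted p = 0.00166). The CD51+ replicates differed among themselves, with replicate 2 the highest for both genes.

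Hoxc6, active in the chest and mammary region, was at 0, 0.0325 and 0.0430 RPKM in CD44+CD51- (0, 2 and 2 reads) and at 1.19, 2.20 and 1.40 RPKM in CD51+, a ratio of means of 63.5 and a log2 change of 1.32 ± 0.17 (adjusted p = 0.0008). Hoxc5, whose role is less well known, was at 0 in CD44+CD51- and at 1.04, 1.65 and 1.44 RPKM in CD51+, at least 30.4-fold higher, with a log2 change of 1.24 ± 0.14 (adjusted p = 0.00046). Hoxc5 and Hoxc10 share 166 exonic bases on the same strand, so their values are not fully separate. Both had 0 or 1 read in each CD44+CD51- library.

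Hoxc4, which in mouse B cells promotes antibody gene diversification, had 0, 0 and 1 reads against 29, 95 and 33 (0.926, 1.14 and 0.529 RPKM in CD51+; log2 change on reads 6.01 ± 0.78, adjusted p = 0.00081). B lineage markers had the opposite order, at 203 to 616 RPKM in CD44+CD51- and 58.7 to 107 RPKM in CD51+ (5 of 6 tested lower). Hoxc8, which acts in the lower chest, had no read in CD44+CD51- and 7, 55 and 27 in CD51+ (at least 8.06-fold higher). Hoxc11, a hindlimb and lumbosacral factor, had none and 4, 45 and 12 (at least 5.26-fold higher). Hoxc12 had none against 4, 1 and 1, which is under the floor in the mean and gives no fold.

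In the Hoxd cluster, Hoxd8 (chromosome 2, 74704615 to 74707933, plus strand), a trunk gene, was at 0, 0.0570 and 0 RPKM in CD44+CD51- and at 2.27, 2.84 and 1.67 RPKM in CD51+ (76, 253 and 111 reads). All 4 reads in CD44+CD51- were in replicate 2, whose stromal marker sum of 115.7 RPKM was above the 21.3 and 19.997 RPKM of the others. That library was also the deepest of its group and had its highest myeloid, erythroid, endothelial and B lineage marker sums. The early progenitor and megakaryocyte sums of the group were highest in replicate 3. The ratio of means of Hoxd8 was 119, with a log2 change of 1.66 ± 0.16 (adjusted p = 0.00025, limma). Hoxd9, which acts with Hoxa9 in the upper forelimb, was at 0 in CD44+CD51- and at 1.27, 1.14 and 0.810 RPKM in CD51+ (33, 79 and 42 reads). It was at least 16.4-fold higher, with a log2 change on reads of 6.60 ± 0.61 (adjusted p = 0.00023).

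The 7 analysed Hoxb genes were low in both populations, at a summed 0.143 ± 0.0703 RPKM in CD44+CD51- and 1.43 ± 0.124 RPKM in CD51+. Hoxb4, which expands blood stem cells when forced on, was the Hoxb gene with most CD44+CD51- reads, at 2, 7 and 8 against 3, 32 and 29 in CD51+. Its RPKM overlapped (0.0381 to 0.161 against 0.0958 to 0.466), and the log2 change of 1.62 ± 0.75 was not called (adjusted p = 0.12), while with the replicate number as a block it was 1.55 (adjusted p = 0.0402). Hoxb5, which marks long-lived stem cells in mouse marrow, had 1, 0 and 0 reads against 3, 20 and 4 (log2 change 3.33 ± 0.87, adjusted p = 0.016), a call lost without CD44+CD51- replicate 2 (0.0758) or replicate 3 (0.0673).

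Hoxb2, a hindbrain gene, had no read in CD44+CD51- and 19, 52 and 28 in CD51+ (at least 10.3-fold higher; log2 change 5.96 ± 0.60, adjusted p = 0.00031), though 953 of its 3488 exonic bases overlap the antisense transcript Hoxb3os. Hoxb7 had 0, 2 and 0 against 8, 18 and 13 (log2 change 3.88 ± 0.71, adjusted p = 0.0035). Hoxb3, of whose 4251 exonic bases 2250 overlap Hoxb3os, had 1, 0 and 0 reads against 0, 16 and 5 and was not called (log2 change 2.57 ± 1.13, adjusted p = 0.104). Hoxb1 had 0, 0 and 2 reads against 1, 0 and 3, and Hoxb6 had none against 8, 1 and 0, and neither was tested. The few CD51+ reads of Hoxb6 lay mostly in replicate 1, the shallowest library, as did those of Hoxc12.

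The make-up of the transcripts of the 30 analysed Hox genes was compared as shares of their summed RPKM, which sets the difference in total aside. Hoxa gave 93.3% ± 3.20 of it in CD44+CD51- and 61.4% ± 1.46 in CD51+, Hoxb 4.78% ± 2.48 and 3.90% ± 0.529, Hoxc 1.37% ± 0.759 and 25.7% ± 2.94, and Hoxd 0.564% ± 0.976 and 8.98% ± 1.58 (SD, n = 3 each). The Hoxb shares overlapped within their spread, and those of the other clusters did not. By paralog number, group 9 gave 41.1% ± 9.11 in CD44+CD51- and 14.8% ± 0.255 in CD51+, and group 10 gave 5.51% ± 2.65 and 45.4% ± 1.02. Paralogs 1 to 3 gave 1.10% ± 0.688 and 3.22% ± 0.284, paralogs 4 to 8 gave 51.8% ± 10.3 and 33.5% ± 1.52, and paralogs 9 to 13 gave 47.1% ± 9.77 and 63.3% ± 1.36. Shares in one library sum to 100%, so a larger Hoxa10 value lowers the share of every other gene. No test was run on the shares. They cover only the genes analysed, of which 7 are Hoxb and 3 Hoxd genes. The 9 annotated genes not analysed, Hoxd3 among them, have no part in them, so the cluster and paralog shares are incomplete.

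**Figure D3:**
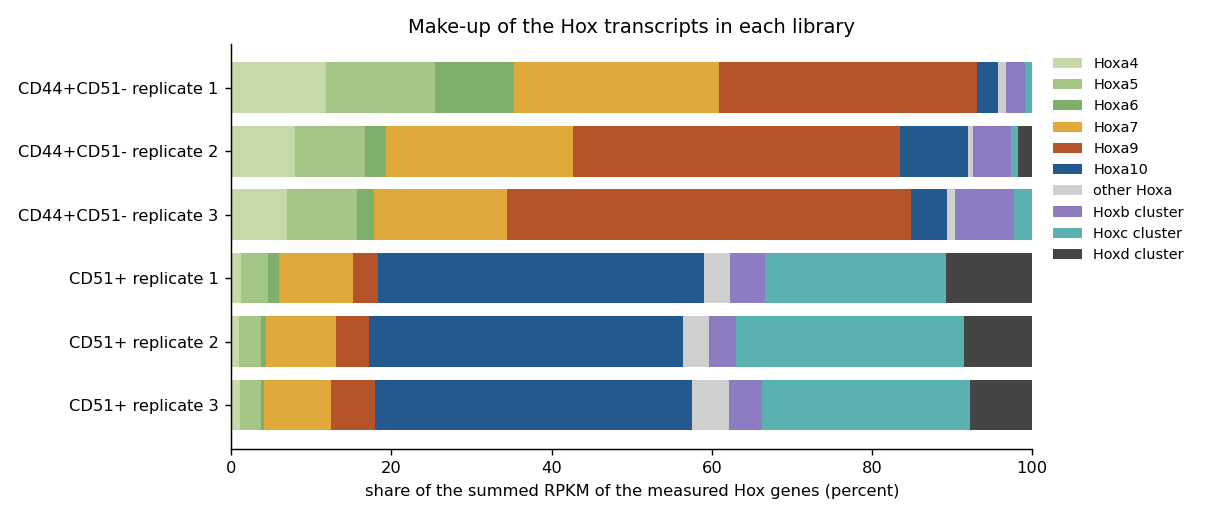
Share of the summed RPKM of the 30 analysed Hox genes (percent, horizontal axis) in each of the 6 libraries (1 bar per library). The parts are Hoxa4 to Hoxa10, the other Hoxa genes and the Hoxb, Hoxc and Hoxd clusters. Hoxa9 (red-brown) takes 32.2% to 50.4% of the CD44+CD51- bars and 3.17% to 5.41% of the CD51+ bars, while Hoxa10 (blue) takes 2.62% to 8.51% and 39.1% to 40.7%.

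The order of the levels differed between the populations. In CD44+CD51-, Hoxa9 (mean 1.24 RPKM), Hoxa7 (0.662 RPKM) and Hoxa5 (0.310 RPKM) followed each other with ranges that did not touch between Hoxa9 and Hoxa7 or between Hoxa7 and Hoxa5. From Hoxa5 downwards, neighbours in the order (Hoxa4, Hoxa10, Hoxa6, Hoxb4, Hoxc6) overlapped in their ranges. In CD51+, Hoxa10 (14.8 RPKM) was apart from Hoxa7 (3.28 RPKM), and all neighbours after that overlapped, beginning with Hoxc9 (2.88 RPKM), Hoxd8 (2.26 RPKM), Hoxc10 (2.13 RPKM), Hoxc6 (1.60 RPKM) and Hoxa9 (1.58 RPKM). The ratio of Hoxa10 to Hoxa7 was 4.43, 4.45 and 4.72 in the CD51+ libraries and 0.102 to 0.364 in those of CD44+CD51-. The latter rest on 5, 24 and 8 Hoxa10 reads, against 534, 1952 and 1009 in CD51+. Their counting error is larger, so the spread of the ratio is not compared between the groups.

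To set the low CD44+CD51- levels beside those of stromal transcripts in the same libraries, each gene's mean was taken as a percent of its CD51+ mean. The 11 stromal markers lay between 0.0936% and 2.59%, with a median of 0.264% and Runx2, the bone lineage factor, the highest. Hoxc10 (0.401%), Hoxc4 (0.777%), Hoxd8 (0.841%), Hoxa10 (1.10%), Hoxa11 (1.23%) and Hoxc6 (1.57%) lay within that range, and 9 further genes were at 0. Of the 28 Hox genes above 0 in CD51+, 12 exceeded every stromal marker. They were led by Hoxa9 (78.5%), Hoxa4 (64.9%), Hoxb1 (50.3%, on 2 reads), Hoxa6 (48%) and Hoxb4 (32.4%). Hoxa5 (29.4%), Hoxa7 (20.2%) and Hoxa3 (11.3%, on 3 reads) followed. The other 4 (Hoxa13, Hoxb3, Hoxb5 and Hoxb7) rested on 1 or 2 reads. CD44+CD51- replicate 2 was the highest of the 3 libraries for each stromal marker. It was also the highest for Hoxa10 and held all Hoxd8 reads. The same library was the deepest of the 3 and had the highest myeloid, erythroid, endothelial and B lineage marker sums. Hoxa9 and Hoxc6 were highest in replicate 3, the single Hoxc4 read was in replicate 3, and the single reads of Hoxc10 and Hoxa11 were in replicate 1. Whether stromal RNA contributed to the Hox reads of CD44+CD51- was not tested.

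**Figure D4:**
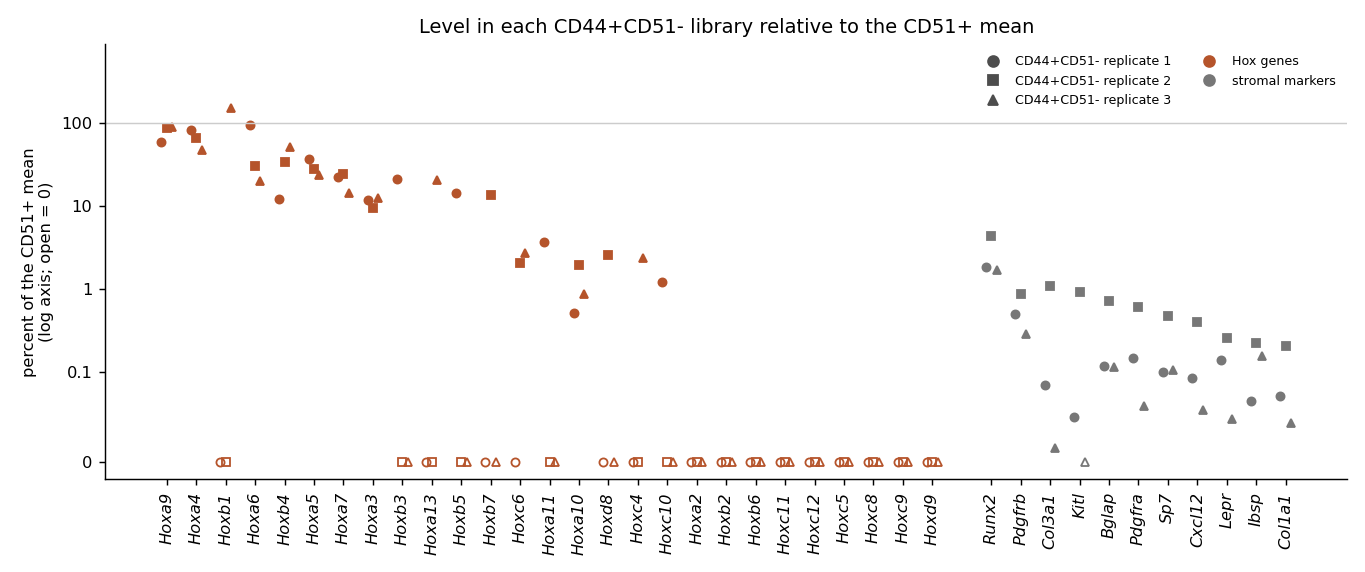
Level in each CD44+CD51- library as a percent of the CD51+ mean (log axis, open symbols at 0) for 27 of the 28 Hox genes above 0 in CD51+ (orange) and the 11 stromal markers (grey), each ordered by its mean percent; marker shapes are replicates. Hoxa9 has the highest mean, 78.5%, Hoxa4 to Hoxa7 lie above every stromal marker, and Hoxa10, Hoxc4, Hoxc6, Hoxc10 and Hoxd8 have means among those of the stromal markers, which run from 0.0936% to 2.59%.

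Genes of the TALE class, to which the partners of the Hox proteins belong, came next. Of 13, 9 were tested, 4 were higher and 2 lower in CD51+ (median log2 change 0.27, all genes -0.23), where 24.1% of all tested genes were higher and 29.7% lower. Under quantile normalization 4 were lower, and with the replicate number as a block 3 were. The 4 genes called higher were below 1 RPKM in every CD44+CD51- library. They entered the test only through CD51+, so their count is a description. Besides the genes below, Pknox2, named after its values were seen, was higher (0.0471 and 1.83 RPKM, log2 change 1.40). Meis3, a Meis partner, went from 0.0324 ± 0.0169 to 5.66 ± 1.09 RPKM (log2 change 2.68 ± 0.16, adjusted p = 2.59e-05, limma). The Iroquois members Irx5 and Irx3, which are limb and heart factors and not Hox cofactors, went from 0.0289 ± 0.0331 to 8.52 ± 1.21 RPKM (log2 change 3.20) and from 0.161 ± 0.262 to 9.07 ± 3.73 RPKM (3.07). Pbx4 was lower, at 12 ± 2.04 RPKM in CD44+CD51- and 3.13 ± 0.585 RPKM in CD51+ (log2 change -1.65 ± 0.18, adjusted p = 0.0005), as was Pknox1, at 9.50 ± 0.779 and 5.83 ± 1.04 RPKM (-0.63 ± 0.17, adjusted p = 0.0165, and 0.0564 without CD44+CD51- replicate 2). Meis1, named after its values were seen because it is a well known partner in blood, was below the RPKM filter at 0.481 RPKM in CD44+CD51- and 1.08 RPKM in CD51+. On reads its log2 change was 1.19 (adjusted p = 0.0109).

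Among the genes of complexes that maintain Hox states, more were lower than higher in CD51+. A list of 13 genes held the Trithorax side, the activating one, and partners of MLL, and all were tested. Their median log2 change was -0.70 (all genes -0.23). Of all tested genes, 24.1% were higher and 29.7% lower. In the list, 1 was higher and 8 lower (5 lower under median-of-ratios scaling and 9 with the replicate block). Among them were Wdr5, a core subunit of the methyltransferase complexes, which went from 54.7 ± 6.56 to 27.2 ± 0.770 RPKM (log2 change -0.98 ± 0.14, adjusted p = 0.0014), Mllt3, an elongation factor partner of MLL (6.66 to 3.05 RPKM, -0.94), Dot1l, the histone H3 lysine methyltransferase recruited by MLL fusions (4.73 to 2.14 RPKM, -0.88), and Psip1, the tether of MLL to chromatin (49.8 to 27.1 RPKM, -0.82). The call of Mllt3 was lost without CD44+CD51- replicate 2 or 3 (adjusted p = 0.0687 and 0.0787), and that of Psip1 under median-of-ratios scaling (0.0562) and without CD51+ replicate 2 (0.0518). The gene called higher was Aff4, an elongation complex scaffold named after its values were seen (log2 change 0.50, adjusted p = 0.0478), and it was not called without CD44+CD51- replicate 2 or 3 or any CD51+ replicate.

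Of 25 Polycomb genes, the repressing side listed together with demethylases that remove its mark, 22 were tested. Of these, 1 was higher and 9 lower (median log2 change -0.42). A block for the replicate number gave 4 and 12, and without CD44+CD51- replicate 2 or 3 only 5 were lower. Cbx2, which reads the repressive mark, went from 5.81 ± 0.586 to 2.07 ± 0.167 RPKM (log2 change -1.15 ± 0.14, adjusted p = 0.00078), and Ezh2, the methyltransferase that writes it, from 24.4 ± 2.88 to 13 ± 3.29 RPKM (-0.89 ± 0.20, adjusted p = 0.0097). Rbbp7, a histone-binding subunit shared with other complexes, went from 226 ± 3.70 to 140 ± 20.2 RPKM (-0.69), and the accessory subunit Phf1 was the gene called higher, from 0.736 ± 0.350 to 4.06 ± 2.04 RPKM (1.48 ± 0.31, adjusted p = 0.007). Rbbp4 was at 56.8 ± 17.8 and 40.3 ± 15.4 RPKM and was not called (-0.51, adjusted p = 0.255, and 0.0185 with the block). Genes lower in CD51+ made up 29.7% of all genes tested and genes higher 24.1%, so decreases were common outside these lists too. Calls of all 11741 genes moved with the setting as well. The block took them from 2825 higher and 3484 lower to 3265 and 4854. Calls lower fell to 2567 and 2551 without CD44+CD51- replicate 2 and replicate 3.

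Inducers of Hox genes, chiefly retinoic acid signalling, gave 7 tested genes of the 13 in the table, 5 higher and 2 lower (median log2 change 1.78), where 24.1% of all tested genes were higher and 29.7% lower. The receptors Rara and Rxra, named after their values were seen, were among those higher. Aldh1a2, an enzyme that makes retinoic acid, went from 0.0368 ± 0.0333 to 18.2 ± 6.77 RPKM (log2 change 4.15 ± 0.25, adjusted p = 2.8e-05), and the retinoic acid receptor Rarg from 0.341 ± 0.126 to 5.55 ± 1.52 RPKM (2.27 ± 0.20, adjusted p = 0.00015). Aldh1a1, another enzyme of this family, was lower, from 63.7 ± 11 to 34.9 ± 11 RPKM (-0.89 ± 0.26, adjusted p = 0.0243), and lost its call without CD44+CD51- replicate 2 or 3 (0.0762 and 0.0595) or CD51+ replicate 2 (0.0578). The receptor Rxrb went from 39.0 to 24.9 RPKM (-0.63), a call lost under median-of-ratios scaling (0.0881). Aldh1a2 and Rarg were below 1 RPKM in every CD44+CD51- library and entered the test only through CD51+. The count of inducers called higher is therefore in part a description.

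**Figure D5:**
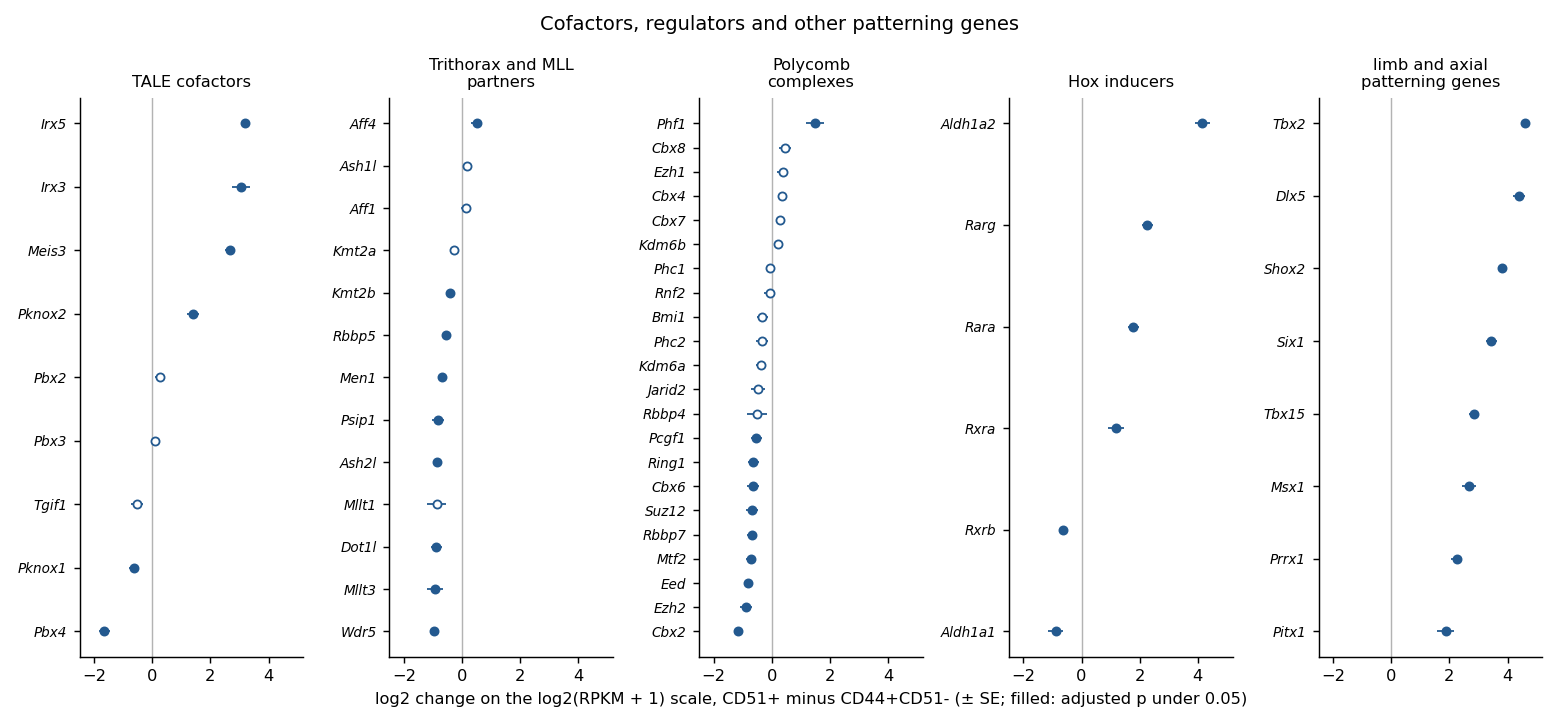
log2 change (CD51+ minus CD44+CD51-, log2(RPKM + 1) scale, points with SE) of tested genes of 5 lists; filled points passed an adjusted p under 0.05. The limb and axial patterning genes all lie to the right, from 1.87 to 4.60. Most filled points of the Trithorax and MLL partner list and of the Polycomb list lie to the left of 0.

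Other patterning genes outside the clusters were also examined. Of 25 limb and axial homeobox, T-box and related genes, 9 were tested, and all 9 of these were higher and 0 lower (median log2 change 3.44), where 24.1% of all tested genes were higher and 29.7% lower. The other 16 did not pass the RPKM filter. The sum of the list was 93.5 to 135 RPKM in CD51+ and 0.163 to 0.683 RPKM in CD44+CD51-, with the highest of the latter in replicate 2. The pair with the largest changes was Tbx2, a limb and heart T-box factor, from 0.0647 ± 0.112 to 24.9 ± 2.67 RPKM (log2 change 4.60 ± 0.16, adjusted p = 4.86e-06), and Dlx5, a bone and jaw factor, from 0.0115 ± 0.0199 to 20.7 ± 5.58 RPKM (4.39). The 9 genes, like the Hox genes called, entered the test through CD51+, so their count is a description.

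The transcripts inside and next to the clusters were examined last. Of the 10 non-coding transcripts in the table, only Hotairm1 passed the RPKM filter, through CD51+ alone. Hotairm1 is an antisense transcript of the Hoxa cluster known in human myeloid cells. It went from 0.145 ± 0.0449 to 1.77 ± 0.698 RPKM (3, 5 and 2 reads against 13, 81 and 46; log2 change 1.24 ± 0.20, adjusted p = 0.0023). Of the genes flanking the clusters, 16 of 21 were tested, 2 were higher and 4 lower (median log2 change -0.24). These shares were no larger than the 24.1% higher and 29.7% lower among all tested genes. The block gave 3 and 8, and calls of all 11741 genes rose with it too, to 3265 higher and 4854 lower. Leaving out CD44+CD51- replicate 3 or CD51+ replicate 2 left 2 lower. Calls lower among all genes then fell from 3484 to 2551 and 2576. The 4 called lower with all libraries and no block were Cbx5, Mtx2, Hnrnpa3 and Nfe2l2. The 2 called higher were Skap2 and Snx10, and all but Skap2 were named after their values were seen. Skap2, next to Hoxa and an adaptor of myeloid cells, went from 4.04 ± 1.02 to 10.8 ± 0.358 RPKM (1.25 ± 0.18, adjusted p = 0.0014). Calcoco1, next to Hoxc, was at 5.72 ± 3.78 and 13 ± 7.66 RPKM and was not called (1.07, adjusted p = 0.103, and 0.00029 with the block), and the same held for Hnrnpa1 at 449 ± 299 and 165 ± 76.1 RPKM (-1.35, adjusted p = 0.0536, and 0.00033 with the block). Nfe2, an erythroid and platelet factor also near Hoxc, was at 69.8 ± 8.37 and 67.2 ± 7.58 RPKM (-0.05, adjusted p = 0.792).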

How the data were processed

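RNA of 6 sorted bone marrow libraries (3 CD44+CD51-, 3 CD51+) was prepared with RNeasy Plus Micro and Nextera XT kits, per the labels' protocols; strand is not kept in usual use of the latter. RPKM values were deposited by the authors in 1 table of 25955 entries, 4303 of them at 0 throughout. GRCm38 and edgeR 3.16.5 are named in the submitters' processing notes; for aligner, counter and annotation nothing is given in the sources used here.

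The difference CD51+ minus CD44+CD51- was fitted with limma 3.58.1 (R 4.3.3, intensity trend, two-sided) on log2(RPKM + 1) over 11741 genes with RPKM of at least 1 in at least 3 libraries, with Benjamini-Hochberg adjustment and a threshold of 0.05. The pseudocount understates changes of low genes. Relative depth was read from the steps of low RPKM and converted with GENCODE M21 exon lengths: 89.7% of 32167 values of up to 20 reads came out whole within 0.05 read, where 10% would by chance, and divisors were 12197833 to 32517059 reads. These reads served limma voom and the counting intervals and floors (3 reads), which cover counting error only. Recovered reads summed to more than the divisor, for an unknown reason. Scripts were tested on simulated data.

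Same-numbered libraries deviated together from their group means (r = 0.619, 0.286 and 0.516 across genes), although CD51+ replicate 2 correlated slightly more with CD44+CD51- replicate 3 (r = 0.324) than with replicate 2. All 3 values were above 0.1, so the numbers were taken to pair the libraries, and blocked values stand beside results they change. All Hox genes were accounted for, those tested in full; of each list, at most the 3 largest absolute log2 changes and the 2 highest mean RPKM among tested genes were named by rule, and other genes named after their values were seen are marked so in the text, apart from the cell type markers (Kit, Myb, Gata2 and Runx2 were also chosen after their values were seen) and transcripts named for an overlap with a Hox gene. The members and lists were chosen with earlier results of these data known. Homeodomain identities were not computed here. A few genes counted in the totals are not reported here by name.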

Additional observations from a re-analysis of the deposited data

How the results depend on the processing

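The number of Hox genes called higher by limma on RPKM, 7, was also 7 with pseudocounts of 0.1 and 0.5, both other scalings, no trend, the replicate block, voom on the same genes and each library left out (7 to 7). The count was 17 with RPKM of at least 0.1 in 3 libraries, 17 with no filter, 20 on recovered reads of at least 10 and 21 there with the block, since more low genes were tested. None was called lower in any of these. On reads, leaving out a library gave 17 to 22 higher, and Hoxb3 passed without CD51+ replicate 1 (adjusted p = 0.0210), as did Hoxb4 (0.0330); all-gene calls lower ran from 1739 to 2364, against 2655. Hox genes at a level of 0.1 RPKM in all 3 libraries numbered 4 in CD44+CD51- and 20 in CD51+, against 0 and 8 at 1 RPKM. Hoxa9 reversed to -0.31 under quantile normalization. Nfe2 reversed to 0.13 under median-of-ratios scaling, 0.13 under quantile normalization, 0.01 without CD44+CD51- replicate 1 and 0.03 without CD51+ replicate 2 (from -0.15 to 0.034 over the libraries left out); the cause was not tested. The median log2 change of all genes moved from -0.23 to -0.08 under median-of-ratios scaling and to -0.35 under quantile normalization, where the summed Hox level of CD44+CD51- was 4.47 RPKM. Apart from the genes named with it, the replicate block changed no call of a named gene. Depth limits the 10 Hox genes with 1 to 3 reads and the 11 with none in CD44+CD51-.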
